A study of Mus musculus with 6 samples.

Results

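The 10 genes followed here place peptides on MHC class I molecules at the cell surface, in the transcriptomes of mouse embryonic stem cells (mESCs) grown without cytokine, with LIF or with oncostatin M (OSM). They were taken by symbol from the 28584 genes of the deposited table, all 10 were listed, and all 10 entered the fit over the 18556 genes that reached 1 TPM (transcripts per 1e6, a level scaled for gene length and library size) in at least 2 libraries. They are the classical heavy chains H2-K1 and H2-D1, the light chain B2m, the peptide transporter subunits Tap1 and Tap2, the loading factor Tapbp (tapasin), the immunoproteasome subunits Psmb8, Psmb9 and Psmb10, and Nlrc5, a transactivator of class I genes.

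The cells were of 1 mESC line of C57BL6/129S6 strain. All were first kept for 5 passages in medium with serum and LIF, on mitomycin C-inactivated mouse embryonic fibroblast feeders, before the media were changed. The 3 groups then received the same basic medium with 20% fetal bovine serum for 10 passages. -LIF-ESCs received no cytokine, LIF-ESCs received LIF at 1000 U/mL, and OSM-ESCs received OSM, with 2 polyA RNA libraries per group. The study describes the -LIF-ESC colonies at these passages as differentiated, with much less Oct4, Nanog and SSEA1 protein than in either cytokine medium. In comparisons with -LIF-ESCs, cytokine and cell state therefore cannot be told apart. LIF and OSM are related cytokines whose receptors share the gp130 chain. The study names the libraries of a group as biological replicates, while the labels do not say whether they came from separate cultures. The p-values measure the spread between these libraries only.

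A class I molecule consists of a heavy chain, the B2m light chain and a short peptide. The proteasome cuts cytosolic proteins into peptides, TAP carries them into the endoplasmic reticulum, and tapasin helps to fit them to the heavy chain. Interferon replaces the constitutive catalytic subunits of the proteasome (Psmb5, Psmb6 and Psmb7) by the immunoproteasome subunits, and embryonic stem cells are known for low surface class I.

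Of the 10 genes, 7 lie on chromosome 17, in or beside the mouse MHC, and the immunoproteasome and transporter genes lie next to each other there. Coordinates are of GRCm38 with the GENCODE M21 gene bounds. H2-K1 (ENSMUSG00000061232.16) spans chr17:33996017-34000347 on the minus strand, and H2-D1 (ENSMUSG00000073411.11) spans chr17:35262730-35267499 on the plus strand. Psmb9 (ENSMUSG00000096727.3) spans chr17:34181987-34187764 on the minus strand. It is followed on the plus strand by Tap1 (ENSMUSG00000037321.17, chr17:34187553-34197225), Psmb8 (ENSMUSG00000024338.15, chr17:34197721-34201454) and Tap2 (ENSMUSG00000024339.12, chr17:34203527-34216321). Tapbp (ENSMUSG00000024308.15) spans chr17:33915899-33929292 on the plus strand. B2m (ENSMUSG00000060802.8) lies apart at chr2:122147686-122153083, plus strand, and Psmb10 (ENSMUSG00000031897.9, chr8:105935735-105938444, minus strand) and Nlrc5 (ENSMUSG00000074151.13, chr8:94434356-94527272, plus strand) lie on chromosome 8. The annotated bounds of Psmb9 and Tap1 overlap at their starts, and whether the counting used strand is not given in the sources used here.

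The sequences upstream of RefSeq starts are shown first, so that the members can be compared by role before their levels are. They are RefSeq sequences of GRCm38.p6, 250 bases before an annotated start, and 8 of the 10 genes had such a window, 9 windows in all since H2-K1 has 2 annotated starts. By the GENCODE bounds above, the windows of H2-D1, Psmb8 and Tapbp lie inside their own genes. The stretch between Psmb9 and Tap1 lies inside the bounds of Psmb9. Not all windows are therefore upstream of the whole gene, which limits the comparison of these windows. Each is written 5′ to 3′ on the strand of its gene, and capitals mark matches to a searched motif. The motifs, chosen after the sequences had been read, were the NF-kappaB consensus, a short interferon element with the letters TTTCNNTTC and a longer form with one more T before the last C, TGACG as the core of the cyclic AMP element, the box CCAAT, and the STAT motif with the letters TTCNNNGAA. Each was searched on both strands, and matches to the interferon forms may overlap. The 2 classical heavy chains and the light chain, which make up the surface molecule itself, read as follows.
H2-K1, chr17:34000334-34000583, minus strand: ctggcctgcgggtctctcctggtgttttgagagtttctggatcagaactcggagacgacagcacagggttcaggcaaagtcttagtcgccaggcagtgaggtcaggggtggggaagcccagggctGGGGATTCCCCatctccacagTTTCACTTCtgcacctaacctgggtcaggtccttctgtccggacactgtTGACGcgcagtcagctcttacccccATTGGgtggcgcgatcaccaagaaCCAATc
H2-D1, chr17:35262844-35263093, plus strand: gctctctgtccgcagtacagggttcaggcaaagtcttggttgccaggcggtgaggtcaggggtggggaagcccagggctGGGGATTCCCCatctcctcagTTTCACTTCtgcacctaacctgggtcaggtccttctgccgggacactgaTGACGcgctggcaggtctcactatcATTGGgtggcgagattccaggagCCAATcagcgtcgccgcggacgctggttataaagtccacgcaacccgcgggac
B2m, chr2:122147437-122147686, plus strand: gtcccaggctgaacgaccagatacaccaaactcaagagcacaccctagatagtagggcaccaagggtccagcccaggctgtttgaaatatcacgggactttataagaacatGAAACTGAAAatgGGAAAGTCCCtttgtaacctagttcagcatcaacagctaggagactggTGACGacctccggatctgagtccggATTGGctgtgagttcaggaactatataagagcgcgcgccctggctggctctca

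The H2-K1 and H2-D1 windows share a run of 47 bases that holds the palindromic NF-kappaB match, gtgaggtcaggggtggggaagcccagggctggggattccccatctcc. Both windows then hold the interferon match TTTCACTTC, the TGACG core and the CCAAT box in the same order, and B2m holds an NF-kappaB match, the long interferon element, the TGACG core and the CCAAT box. Of 32851 RefSeq windows of the same length, the NF-kappaB consensus was matched in 7.25%, the short interferon element in 6.31%, the long one in 2.98%, the TGACG core in 17.8%, the CCAAT box in 33.8% and the STAT motif in 7.02%. A match describes letters and is not evidence of a bound factor.

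The windows of some genes that were lower in the cytokine media are set beside them. The 225 bases between the starts of Psmb9 and Tap1 are written on the strand of Tap1, so that they read away from Psmb9.
Psmb9 to Tap1, chr17:34187331-34187555, plus strand: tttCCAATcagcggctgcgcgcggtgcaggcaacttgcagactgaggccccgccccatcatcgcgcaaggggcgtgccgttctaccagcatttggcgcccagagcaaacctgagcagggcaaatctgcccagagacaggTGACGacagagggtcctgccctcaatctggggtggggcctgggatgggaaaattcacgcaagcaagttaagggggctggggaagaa
Psmb8, chr17:34197945-34198194, plus strand: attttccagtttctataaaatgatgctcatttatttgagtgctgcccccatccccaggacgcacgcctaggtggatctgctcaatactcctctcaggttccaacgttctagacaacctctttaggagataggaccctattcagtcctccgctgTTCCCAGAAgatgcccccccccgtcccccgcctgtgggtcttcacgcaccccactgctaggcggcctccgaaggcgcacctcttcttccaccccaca
The stretch between Psmb9 and Tap1 held the CCAAT box and the TGACG core, and Psmb8 held only a STAT match, TTCCCAGAA, 97 to 89 bases before its start. The window of Tapbp held 2 CCAAT matches, and that of Psmb10 held none of the motifs searched. No window was at hand for Tap2 and Nlrc5.

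With either cytokine the members divided largely by role, though H2-D1 and H2-K1 differed. The light chain, H2-D1 and Nlrc5 were higher than in -LIF-ESCs. All 3 immunoproteasome subunits, Tap2 and Tapbp were called lower, and Tap1 was lower but short of the call. H2-K1 did not pass the test with LIF and was slightly higher with OSM. A gene was called when its log2 fold change on the log2(TPM + 1) scale was at least 1 in either direction and its limma adjusted p was under 0.05 over all genes tested. LIF-ESCs against -LIF-ESCs gave 1 member called higher and 5 called lower, where 13.3% of all genes tested were called higher and 8.09% lower. OSM-ESCs against -LIF-ESCs gave 3 called higher and 5 called lower, beside 14.2% and 7.86% of all genes. By the adjusted p alone, 9 of the 10 members passed with LIF and 10 of 10 with OSM, where 68.1% and 68.3% of all genes did. The median log2 fold change of the members was -1.34 with LIF and -1.04 with OSM, where the median over all genes was 0.17 and 0.18. Both comparisons use the same -LIF-ESC libraries and are therefore not independent of each other. For each member the libraries of the groups compared did not overlap in any of the 3 comparisons, which was also the case for 84.2%, 83.9% and 47.1% of all genes tested. Scaling the libraries to a common median ratio moved the median over all genes to 0.00 and 0.01 and the share of higher genes among all called from 62.2% to 49.7% with LIF and from 64.3% to 51% with OSM. Under the same scaling the members called were 1 higher and 6 lower with LIF, where Tap1 passed the limit at -1.15, and 1 higher and 5 lower with OSM, where H2-D1 at 0.92 and Nlrc5 at 1.00 (just under the limit) lost their calls. Of the 18556 genes tested, this scaling called 1924 higher and 1948 lower with LIF, and 2028 higher and 1946 lower with OSM. Limma-voom gave 2 members called higher in each, with 6 lower for LIF and 5 for OSM. Of its 18431 genes, it called 2681 higher and 2316 lower with LIF, and 2813 higher and 2334 lower with OSM.

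**Figure D1:**
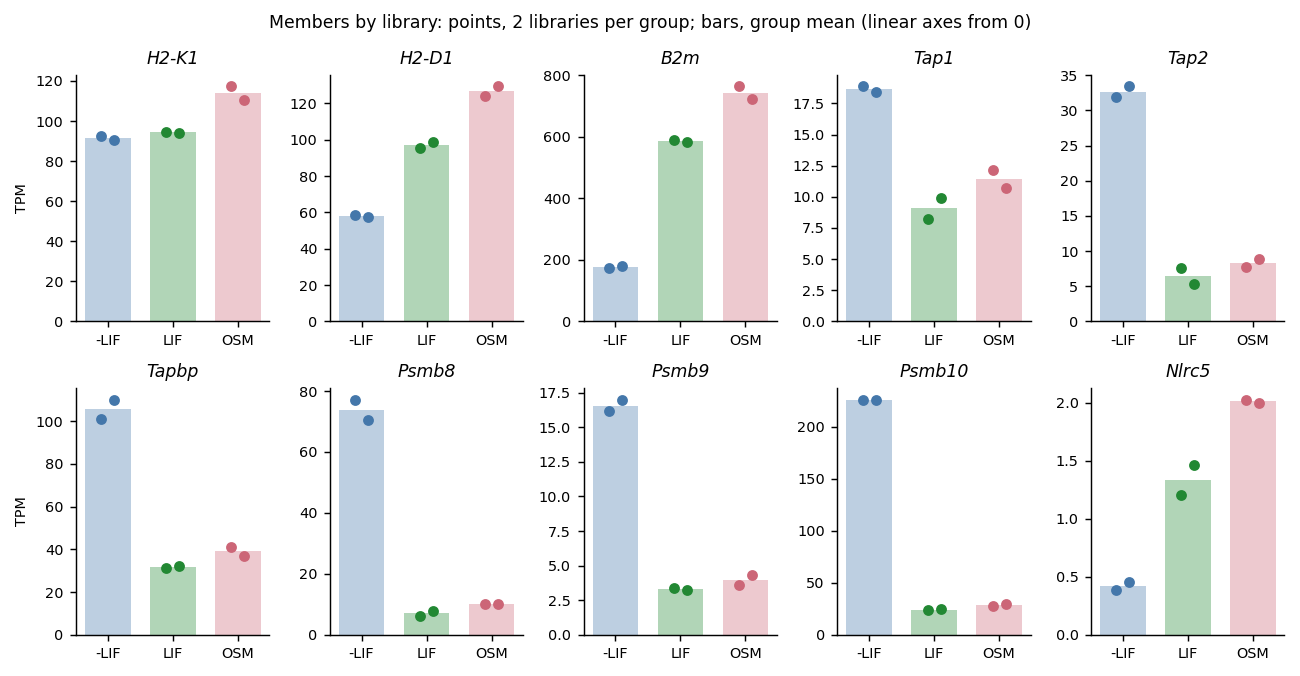
Levels of the 10 genes in the 6 libraries, with TPM on linear axes from 0, points for libraries and bars for group means. The 3 Psmb genes, Tap2 and Tapbp fall from the -LIF-ESC libraries to both cytokine groups, while B2m and H2-D1 rise.

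B2m, the light chain of the class I molecule, was at 175 and 181 TPM in -LIF-ESCs, 591 and 584 TPM in LIF-ESCs and 765 and 723 TPM in OSM-ESCs. It was the most abundant member in both cytokine groups. Its mean was 178 ± 4.77 TPM (SD, n = 2) without cytokine, 587 ± 5.00 TPM with LIF and 744 ± 29.2 TPM with OSM. It was 3.30-fold higher with LIF (log2 fold change 1.72, SE 0.04, limma adjusted p = 6e-06) and 4.18-fold higher with OSM (2.06, SE 0.04, limma adjusted p = 3.3e-06).

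H2-D1, one of the classical heavy chains that present peptides to CD8 T cells, was at 58.5 and 57.3 TPM in -LIF-ESCs, 95.6 and 98.6 TPM in LIF-ESCs and 124 and 129 TPM in OSM-ESCs. The 3 groups stood in the same order as for B2m. It was 1.68-fold higher with LIF (log2 fold change 0.74, SE 0.04, limma adjusted p = 5.3e-05) and 2.19-fold higher with OSM (1.12, SE 0.04, limma adjusted p = 1.6e-05). H2-K1, the other classical heavy chain, was at 92.3 and 90.7 TPM in -LIF-ESCs, 94.6 and 94.0 TPM in LIF-ESCs and 117 and 111 TPM in OSM-ESCs. The -LIF-ESC and LIF-ESC libraries of H2-K1 lay close together. Its log2 fold change with LIF was 0.04 (SE 0.04, limma adjusted p = 0.39, 95% interval -0.06 to 0.15), and it turned to -0.15 when libraries were scaled to a common median ratio (limma adjusted p = 0.010, and 0.065 to 0.64 in the other alternatives). With OSM it was 1.25-fold higher (log2 fold change 0.31, SE 0.04, limma adjusted p = 0.0013).

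The 2 heavy chains changed places. The ratio of H2-D1 to H2-K1, which does not depend on the scaling of a library, was 0.634 and 0.631 without cytokine, 1.01 and 1.05 with LIF and 1.06 and 1.17 with OSM. H2-K1 was the more abundant chain in both -LIF-ESC libraries and the less abundant in all 4 cytokine libraries. The light chain rose further than the heavy chains: B2m over the sum of H2-K1 and H2-D1 was 1.16 and 1.23 without cytokine, 3.11 and 3.03 with LIF and 3.17 and 3.01 with OSM. The LIF-ESC and OSM-ESC libraries overlapped in this ratio and both lay above the -LIF-ESC libraries. Heavy chains are close in sequence to one another, and 0.957% of the 100-base words of H2-K1 transcripts and 3.59% of those of H2-D1 also occur in transcripts of other genes, mainly other class I heavy chains, so their levels carry that uncertainty.

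Nlrc5, a transactivator that acts at class I promoters, was the least abundant member in every library. It was at 0.385 and 0.456 TPM in -LIF-ESCs, 1.20 and 1.46 TPM in LIF-ESCs and 2.03 and 2.00 TPM in OSM-ESCs. These levels correspond to 37 and 36, 96 and 112, and 174 and 206 recovered reads, so that sampling alone leaves a wide error in the first group. The ratio of means was 3.17 with LIF and 4.79 with OSM. On the log2(TPM + 1) scale, which understates changes of low genes, the differences were 0.71 (SE 0.13, limma adjusted p = 0.0053) and 1.09 (SE 0.13, limma adjusted p = 0.0010).

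Of the immunoproteasome genes, Psmb10 and Psmb8 showed the largest differences among the members. Psmb10, the inducible counterpart of Psmb7, was at 226 TPM in both -LIF-ESC libraries, 23.9 and 24.5 TPM in LIF-ESCs and 27.8 and 29.5 TPM in OSM-ESCs. It was the most abundant member without cytokine. It was 9.32-fold lower with LIF (log2 fold change -3.17, SE 0.04, limma adjusted p = 1.9e-06) and 7.87-fold lower with OSM (-2.93, SE 0.04, limma adjusted p = 2.1e-06).

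Psmb8, the inducible counterpart of Psmb5, was at 77.2 and 70.6 TPM in -LIF-ESCs, 6.31 and 7.86 TPM in LIF-ESCs and 10.0 and 10.1 TPM in OSM-ESCs. It was 10.4-fold lower with LIF (log2 fold change -3.22, SE 0.10, limma adjusted p = 1.3e-05) and 7.33-fold lower with OSM (-2.76, SE 0.10, limma adjusted p = 1.9e-05). Psmb8 had the largest log2 fold change of the 10 with LIF, and Psmb10 with OSM. Psmb9, the inducible counterpart of Psmb6, was at 16.1 and 17.0 TPM in -LIF-ESCs, 3.38 and 3.27 TPM in LIF-ESCs and 3.57 and 4.35 TPM in OSM-ESCs. It was 4.98-fold lower with LIF (log2 fold change -2.02, SE 0.10, limma adjusted p = 4.1e-05) and 4.19-fold lower with OSM (-1.83, SE 0.10, limma adjusted p = 5.5e-05). Psmb9 was the lowest of the 3 subunits in every library.

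The constitutive partners differed less and in both directions. Psmb5 rose from 243 ± 1.82 TPM (SD, n = 2) in -LIF-ESCs to 401 ± 7.71 TPM in LIF-ESCs and 407 ± 10.7 TPM in OSM-ESCs (limma adjusted p = 3.6e-05 and 3.2e-05). Psmb6 fell from 346 ± 7.62 to 249 ± 18.0 and 257 ± 1.33 TPM (limma adjusted p = 0.00080 and 0.0012). Psmb7 was at 143 ± 3.49, 166 ± 6.58 and 162 ± 3.08 TPM. Its small rise with OSM, 0.18 on the log2(TPM + 1) scale, turned to -0.02 when libraries were scaled to a common median ratio.

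The summed TPM of the 3 inducible subunits amounted to 43.1% and 43.2% of that of the 3 constitutive subunits without cytokine, to 4.13% and 4.35% with LIF and to 5.05% and 5.29% with OSM. The ratio, which is free of library scaling, fell by 3.35 on the log2 scale with LIF and by 3.06 with OSM. An exact two-sided permutation test of 2 against 2 libraries gave p = 0.333 for each, the smallest value it can give. Pair by pair, Psmb10 stood at 155% and 161% of Psmb7 without cytokine and at 14.0% to 18.4% with either cytokine. Psmb8 stood at 31.9% and 28.9% of Psmb5 without cytokine and at 1.55% to 2.51% with cytokine. Psmb9 over Psmb6 was 4.59% and 4.98% without cytokine and 1.25% to 1.69% with it.

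**Figure D2:**
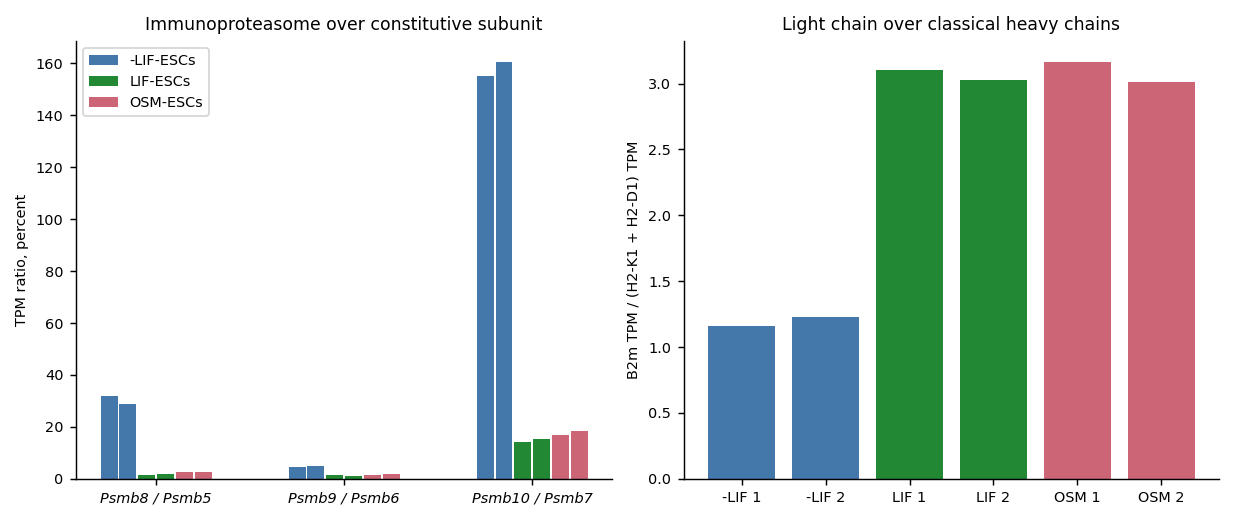
Left, TPM of each inducible proteasome subunit as a percent of its constitutive counterpart, 1 bar per library; right, B2m TPM over the summed TPM of H2-K1 and H2-D1 in each library. Psmb10 exceeded Psmb7 only in the 2 -LIF-ESC libraries, and the B2m ratio was lowest there.

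The transport and loading members Tap2, Tap1 and Tapbp moved in the direction of the immunoproteasome. Tap2, one chain of the peptide transporter, was at 31.8 and 33.4 TPM in -LIF-ESCs, 7.53 and 5.28 TPM in LIF-ESCs and 7.67 and 8.87 TPM in OSM-ESCs. It was 5.10-fold lower with LIF (log2 fold change -2.20, SE 0.16, limma adjusted p = 0.00014) and 3.94-fold lower with OSM (-1.86, SE 0.16, limma adjusted p = 0.00025). Tap1, the other chain, was at 18.9 and 18.4 TPM in -LIF-ESCs, 8.20 and 9.94 TPM in LIF-ESCs and 12.1 and 10.7 TPM in OSM-ESCs. Tap1 was below Tap2 without cytokine and above it in all 4 cytokine libraries. It was 2.06-fold lower with LIF (log2 fold change -0.97, SE 0.11, limma adjusted p = 0.00067) and 1.63-fold lower with OSM (-0.66, SE 0.11, limma adjusted p = 0.0029), short of the limit on the log2(TPM + 1) scale in both. With LIF it passed that limit under median ratio scaling (-1.15), limma-voom (-1.18) and a pseudocount of 0.1 (-1.04). Tapbp, which bridges the transporter and the empty heavy chain, was at 101 and 110 TPM in -LIF-ESCs, 31.2 and 32.0 TPM in LIF-ESCs and 41.1 and 36.9 TPM in OSM-ESCs. It was 3.34-fold lower with LIF (log2 fold change -1.71, SE 0.07, limma adjusted p = 2.4e-05) and 2.71-fold lower with OSM (-1.42, SE 0.07, limma adjusted p = 4e-05). Tap1 and Psmb9 start beside each other and diverge, yet the fall of Psmb9 was the larger of the 2; the difference between the genes was not tested.

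**Figure D3:**
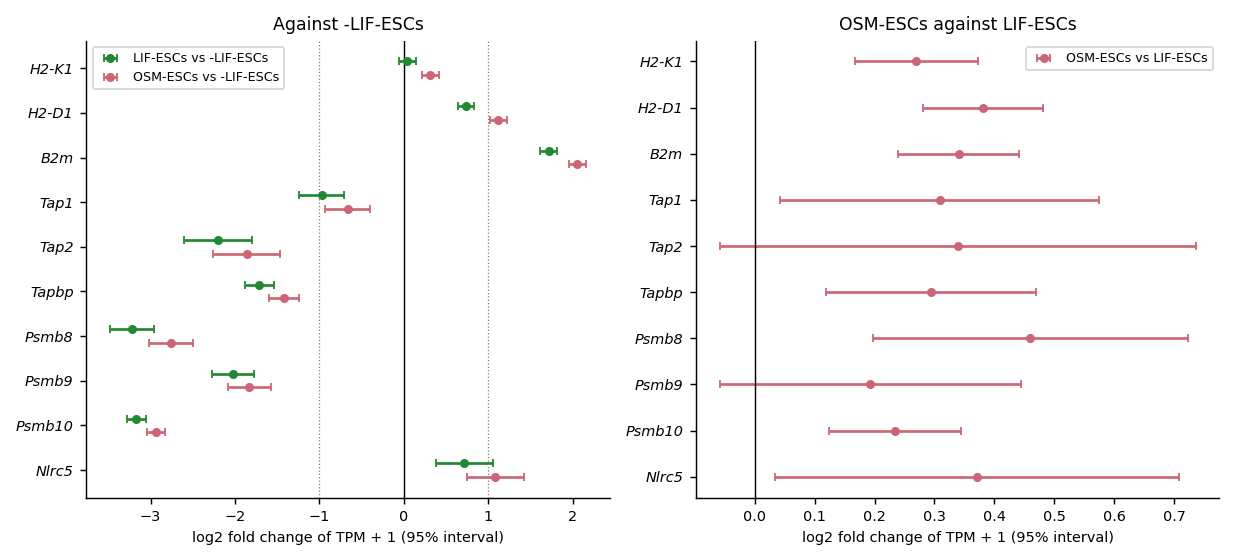
Log2 fold change of TPM + 1 with its 95% interval for each member, against -LIF-ESCs on the left (dotted lines at -1 and 1) and for OSM-ESCs against LIF-ESCs on the right. On the left 5 genes lie below -1 in both comparisons, and on the right all 10 estimates lie between 0.19 and 0.46.

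Between the cytokines the differences were small and ran one way. All 10 members stood higher with OSM than with LIF, by 0.19 to 0.46 on the log2(TPM + 1) scale with a median of 0.32, where the median over all genes was 0.01. None was called by limma or by limma-voom, as against 0.0808% of all genes tested. H2-D1 and B2m passed by the limma adjusted p alone, beside 0.463% of all genes that passed and were higher. H2-D1 was 1.31-fold higher (log2 fold change 0.38, 95% interval 0.28 to 0.48, limma adjusted p = 0.042) and B2m was 1.27-fold higher (0.34, 0.24 to 0.44, limma adjusted p = 0.047). At an unadjusted p under 0.05, 8 members were higher and 0 lower in limma, where 9.8% of all genes were higher. Tap2 (0.34, 95% interval -0.06 to 0.74) and Psmb9 (0.19, -0.06 to 0.44) were those outside it. The libraries of the 2 groups did not overlap for any member, with OSM-ESCs on the higher side, which was so for 26.3% of all genes. H2-D1 and B2m did not pass without the mean trend, with only the 2 groups compared or with the replicate number as a block. Of all genes tested, 12, 0 and 0 passed in those fits, against 110 in the main fit. Limma-voom on reads recovered from the TPM values passed 7 members at its adjusted p, where 1442 of its 18431 genes passed in either direction. With 1 library left out, the log2 fold change ran from 0.35 to 0.41 for H2-D1 and from 0.30 to 0.38 for B2m. Such a fit leaves 1 library in a group and passed hardly any gene of the whole table, so it cannot judge these 2 genes.

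**Figure D4:**
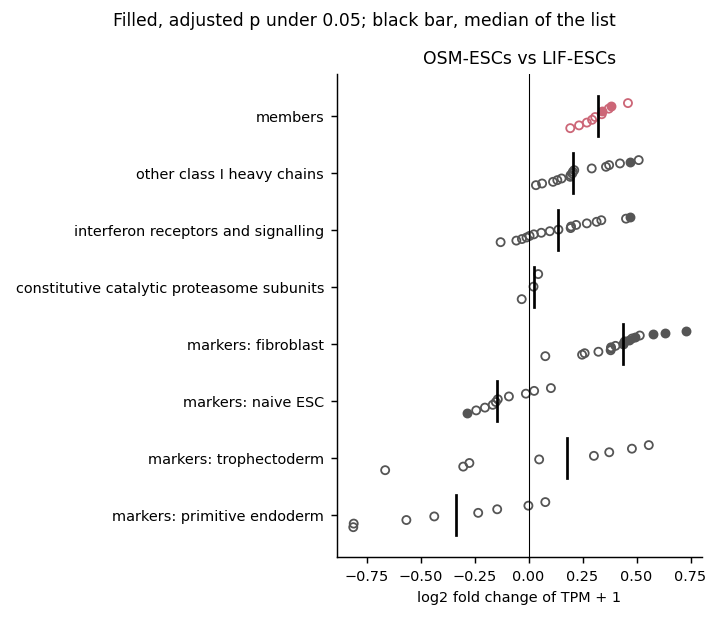
Log2 fold change of TPM + 1 in OSM-ESCs against LIF-ESCs, 1 point per gene tested, filled where the adjusted p was under 0.05, with a black bar for the median of each list. Rows are the members, the other class I heavy chains, interferon receptors and signalling, and the constitutive proteasome subunits. Below them are the fibroblast, naive mESC, trophectoderm and primitive endoderm markers. All members and all 18 fibroblast markers tested lie above 0.

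Markers of fibroblasts moved with the same contrast. Of the 19 fibroblast markers listed, 18 were tested and 18 stood higher with OSM than with LIF, with a median log2 fold change of 0.44, 15 at an unadjusted limma p under 0.05 and 6 at the adjusted p, of which 0 stayed when any 1 of the 6 libraries was left out. Their summed level was 259 to 271 TPM in -LIF-ESCs, 881 to 884 TPM in LIF-ESCs and 1286 to 1293 TPM in OSM-ESCs. The collagen genes Col1a1 and Col1a2 were at 87.5 and 44.2 TPM in LIF-ESCs and 136 and 62.7 TPM in OSM-ESCs, against 23.9 and 5.52 TPM in -LIF-ESCs, where Fap was at 0. Against -LIF-ESCs, 15 of the 18 were called higher with each cytokine. Fibroblasts express class I genes, and the feeders of the first passages were fibroblasts, while the sources used here do not say whether feeders were kept in the later media. The part of these cells in the levels of the members was not tested. In such bulk libraries a change in the number of cells of a type and a change of RNA per cell cannot be told apart.

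The markers of other cells ran differently. The 10 markers of naive mESCs, Pou5f1 and Nanog among them, summed to 2195 to 2219 TPM in -LIF-ESCs, 3877 to 4020 TPM in LIF-ESCs and 3642 to 3678 TPM in OSM-ESCs. Of these 10 genes, 5 were called higher and 1 lower with each cytokine. Trophectoderm markers summed to 1835 TPM in both -LIF-ESC libraries and to 63.3 to 76.0 TPM in the 4 cytokine libraries, which is the direction of the immunoproteasome genes. All 8 tested were lower with each cytokine, with a median log2 fold change of -1.77 with LIF and -1.66 with OSM. Primitive endoderm markers summed to 42.4 to 42.9 TPM in -LIF-ESCs, 115 to 116 TPM in LIF-ESCs and 93.4 to 94.3 TPM in OSM-ESCs. Of these 8 genes, 5 were called higher with each cytokine, the direction of B2m. Endothelial markers summed to 33.5 to 42.3 TPM over the 6 libraries. Of the 3 tested, 1 was called lower with each cytokine and 1 was higher by the limma adjusted p alone. Leukocyte markers are of interest because leukocytes carry high class I and immunoproteasome levels. The leukocyte markers summed to 17.4 to 18.4 TPM in -LIF-ESCs and 105 to 113 TPM with cytokine, of which Laptm5 made up most. Adgre1 and Tyrobp were at or near 0. Of the 9 listed, 4 were tested, and these 4 stood higher with each cytokine, 2 at the limma adjusted p and 1 called. Whether any of these cells had a part in the differences of the members was not tested. Depth ran from 20712941 to 28994417 recovered reads per library. Both OSM-ESC libraries (24959421 and 28994417) were deeper than both LIF-ESC libraries (22856955 and 21869003).

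The other genes of the pathway, 80 of which were tested, lay on both sides. With LIF 9 were called higher and 14 lower, and with OSM 12 higher and 13 lower, beside the shares of all genes given above. Their median log2 fold change was 0.06 and 0.08, which turned to -0.13 and -0.12 under median ratio scaling and to -0.07 and -0.06 under limma-voom.

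Of further class I heavy chain genes, most of them nonclassical, 16 were tested. With LIF 4 were called higher and 2 lower, and with OSM 6 higher and 1 lower. By the limma adjusted p alone 7 were higher and 6 lower with LIF, and 9 higher and 5 lower with OSM. The shares of all genes at both limits are given above. The genes named next had the largest changes, and all of them rose. H2-M5 rose from 3.55 ± 0.783 TPM (SD, n = 2) in -LIF-ESCs to 32.8 ± 0.0609 TPM in LIF-ESCs and 36.2 ± 2.96 TPM in OSM-ESCs (log2 fold change 2.91 and 3.04, limma adjusted p = 3e-05 and 2.6e-05). H2-Q1 rose from 0.591 ± 0.0382 to 4.78 ± 0.244 and 6.43 ± 0.651 TPM (1.86 and 2.22, limma adjusted p = 6.8e-05 and 3.8e-05). H2-T23, which encodes the nonclassical Qa-1 molecule that natural killer cells read, rose from 2.21 ± 0.287 to 6.57 ± 0.368 and 8.27 ± 0.229 TPM (1.24 and 1.53, limma adjusted p = 0.00020 and 9.2e-05). All 16 stood higher with OSM than with LIF, with a median of 0.20, and 7 had an unadjusted limma p under 0.05. H2-T22 alone passed the adjusted p, at 21.1 ± 0.0224 TPM in LIF-ESCs and 29.7 ± 1.51 TPM in OSM-ESCs (log2 fold change 0.47, limma adjusted p = 0.047). Like those of H2-D1 and B2m, its adjusted p lay near the limit, and fits with 1 library left out cannot judge it.

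Most genes that cut, protect or load peptides were not called. Among 9 folding and loading genes only Tapbpl, a tapasin relative that edits peptides, was called, lower in both media. It fell from 16.4 ± 0.780 TPM to 3.07 ± 0.209 TPM with LIF and 3.86 ± 0.497 TPM with OSM (log2 fold change -2.10 and -1.84, limma adjusted p = 4.1e-05 and 5.9e-05). Ganab, the glucosidase that prepares glycans for calnexin, rose from 127 ± 0.301 TPM to 221 ± 3.65 and 219 ± 1.53 TPM, short of the limit on the fold change (limma adjusted p = 2e-05 for each). Among 7 peptidases only Erap1, which trims peptides in the endoplasmic reticulum, was called. It fell from 16.0 ± 0.483 TPM to 3.59 ± 0.195 and 4.53 ± 0.522 TPM (-1.89 and -1.63, limma adjusted p = 4.2e-05 and 6.6e-05).

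Among 7 proteasome activator and assembly genes, Psme1 and Psme2, which form the interferon-inducible PA28 cap, were called lower in both media. Psme1 fell from 159 ± 2.22 TPM to 60.3 ± 1.01 and 61.9 ± 4.29 TPM (log2 fold change -1.39 and -1.35, limma adjusted p = 2.2e-05 for each). Psme2 fell from 161 ± 2.35 TPM to 45.1 ± 0.754 and 49.4 ± 0.989 TPM (-1.82 and -1.69, limma adjusted p = 4.1e-06 and 4.6e-06). Of the class II pathway 5 genes were tested and 5 were called lower in each medium. Cd74, the invariant chain, fell from 19.7 ± 0.290 TPM to 0.962 ± 0.137 and 0.965 ± 0.372 TPM (-3.40 and -3.41, limma adjusted p = 3.2e-05 and 3e-05).

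The regulators did not move as one set. Of 12 genes for factors of the class I promoter (the RFX, CREB and NF-Y complexes) and of NF-kappaB, 0 were called in either medium, while at the limma adjusted p alone 7 were higher and 3 lower in each, beside the 68.1% and 68.3% of all genes at that limit. Of 17 genes of interferon receptors and signalling, 3 were called higher and 3 lower with LIF, and 4 higher and 3 lower with OSM. Irf1, an activator of class I and immunoproteasome genes, fell from 91.7 ± 0.690 TPM to 10.2 ± 0.105 and 10.6 ± 0.612 TPM (log2 fold change -3.05 and -2.99, limma adjusted p = 3.1e-06 and 2.9e-06). Irf7 rose from 1.91 ± 0.0446 TPM to 28.6 ± 0.592 and 35.8 ± 0.435 TPM (3.35 and 3.66, limma adjusted p = 2.3e-06 and 2e-06). Irf1 thus stood on the side of the immunoproteasome genes, and Irf7 on the side of B2m. Of the 8 interferon genes listed, 3 were in the deposited table, and none of these reached the level needed for the test. Among them, Ifnb1 had 0 recovered reads in both -LIF-ESC libraries, 5 and 4 reads in LIF-ESCs and 7 and 5 reads in OSM-ESCs.

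Among 4 ligands of the activating NKG2D receptor of natural killer cells, 2 were called higher in each medium and 0 lower. Raet1e rose from a mean of 9.03 TPM to 32.5 and 35.9 TPM (log2 fold change 1.74 and 1.88, limma adjusted p = 5e-05 and 3.9e-05). H60b rose from a mean of 3.20 TPM to 12.0 and 13.7 TPM (1.63 and 1.81, limma adjusted p = 0.00017 and 0.00012).

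**Figure D5:**
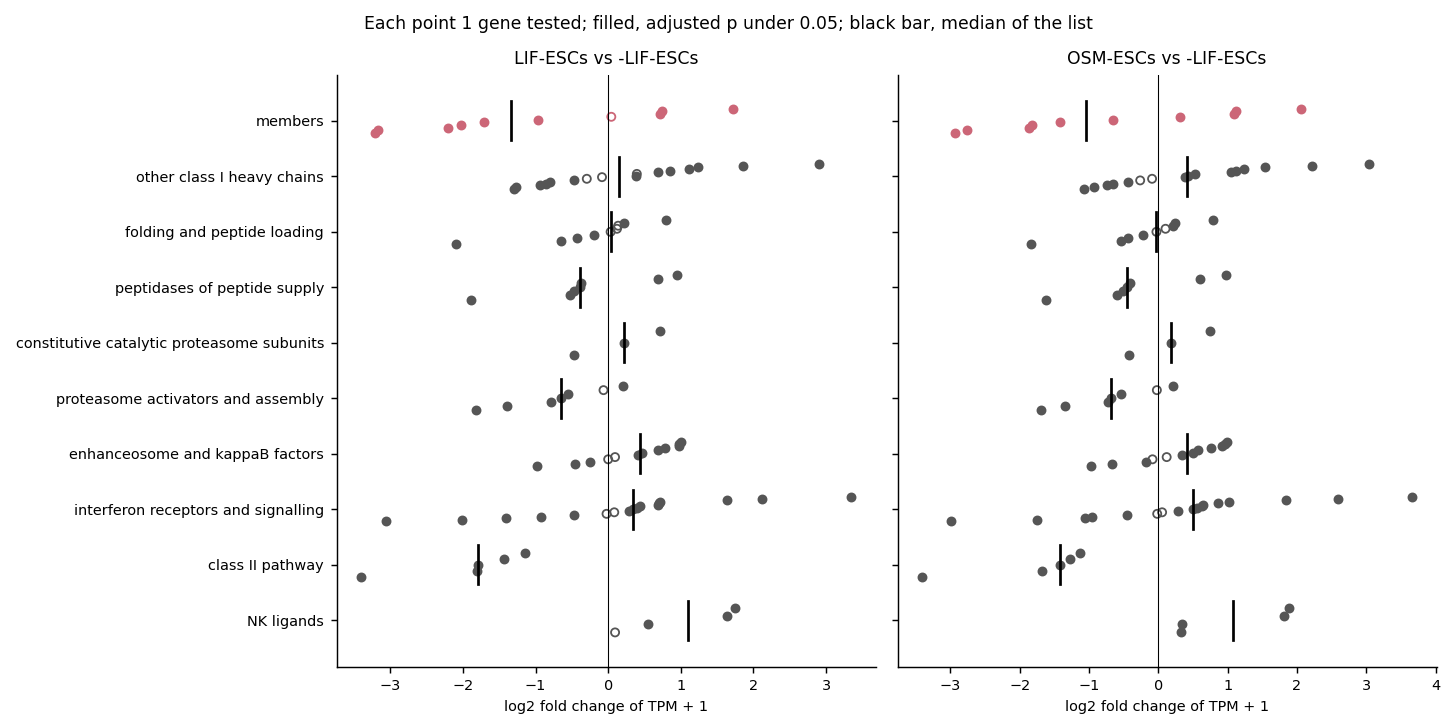
Log2 fold change of TPM + 1 against -LIF-ESCs for the members and for each pathway list with genes tested, 1 panel per cytokine. Each point is 1 gene tested, filled where the adjusted p was under 0.05, with a black bar for the median. The class II genes tested all lie below 0, and the heavy chain genes lie on both sides.

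Outside the pathway and marker lists, the genes whose profile lay nearest to that of B2m were sought. Likeness was the Euclidean distance between profiles of log2(TPM + 1) over the 6 libraries, each centred on its own mean. Cdc42ep3 (distance 0.095) was nearest, at 4.71 and 5.24 TPM in -LIF-ESCs, 18.4 and 17.6 TPM in LIF-ESCs and 23.5 and 21.9 TPM in OSM-ESCs. Trim12a (0.099), Rsad2 (0.124), Elk3 (0.124) and Masp1 (0.129) followed. Rsad2, an interferon-stimulated antiviral gene, was at 2.77 and 2.93 TPM without cytokine, 12.1 and 10.8 TPM with LIF and 16.2 and 14.9 TPM with OSM. Among the members H2-D1 (1.11) and Nlrc5 (1.15) lay nearest to B2m and Psmb10 (5.70) farthest.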

How the data were processed

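PolyA RNA libraries of mESCs, 2 for each of -LIF-ESCs, LIF-ESCs and OSM-ESCs, were sequenced by the authors, mapped to mm10 with HISAT2 and counted per gene with featureCounts, after trimming with Trimmomatic per the submitters' processing notes (versions and strand setting not given in the sources used here). The deposited table holds TPM values per gene and library. Groups and replicate numbers came from the sample titles.

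TPM values were used as deposited. The 18556 genes that reached 1 TPM in 2 or more libraries were fitted as log2(TPM + 1) in limma 3.58.1 under R 4.3.3, with all 3 groups in 1 model, a mean trend and Benjamini-Hochberg adjustment (residual df 3, median residual SD 0.0862). Calls needed an adjusted p below 0.05 together with a 2-fold change (1 on the log2 scale), as in the study's methods. The study's count model was not the main test because the values are TPM. Multiplying TPM by GENCODE M21 exon lengths (28405 symbols matched, 99.4%) gave reads that were whole within 0.02 read for 95.4% of values. They gave the depths and the limma-voom alternative. Reads are printed only for genes whole in all 6 libraries.

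All members are named. Of each pathway list, the genes eligible to be named were up to 3 with the largest change at adjusted p under 0.05 against -LIF-ESCs and any at adjusted p under 0.05 between the cytokines, and for likeness to B2m the 5 nearest genes outside the lists. Marker genes beyond this rule (Col1a1, Col1a2, Fap, Pou5f1, Nanog, Laptm5, Adgre1, Tyrobp) and Ifnb1 were picked after their values were seen. The members and lists were chosen with earlier results of these data known. Ratios were compared by exact permutation (SciPy 1.17.1). Alternatives were a pseudocount of 0.1, no filter, a filter of 5 TPM, no trend, only the 2 groups compared, a replicate block, median ratio scaling, limma-voom, and each library left out. Some genes that the naming rule would take are not reported here.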

Additional observations from a re-analysis of the deposited data

How the results depend on the processing

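The members called against -LIF-ESCs numbered 6 to 7 with LIF and 8 in each case with OSM when 1 library was left out, and the members at adjusted p under 0.05 numbered 9 and 10 in every such fit. Under the other alternatives 6 to 8 members were called with LIF, 8 with a pseudocount of 0.1 and with limma-voom. With OSM 6 to 8 were called, 6 with median ratio scaling (1 higher in place of 3) and 7 with limma-voom and with the filter of 5 TPM. With the pseudocount of 0.1, 3179 of all genes tested were called higher and 1910 lower with LIF, against 2470 and 1502 in the main fit. The pathway genes called with 1 library left out numbered 23 to 26 and 24 to 27. The difference in the ratio of inducible to constitutive subunits ran from -3.38 to -3.31 with LIF, from -3.10 to -3.03 with OSM and from 0.25 to 0.32 between the cytokines. H2-K1 with LIF reversed to -0.15 under median ratio scaling and -0.092 under limma-voom. No other member changed direction in any comparison or alternative. Between OSM-ESCs and LIF-ESCs 2 members were at adjusted p under 0.05 as reported, beside 110 of all genes tested. There was 1 member with a pseudocount of 0.1, with no filter and with median ratio scaling, beside 62, 81 (of 28584) and 105 genes. There were 0 members with no trend and with only the 2 groups compared, beside 12 and 0 genes. Limma-voom passed 7 members, beside 1442 of 18431 genes. In these settings the member counts moved in the direction of the counts over all genes. The reason was not tested. Nlrc5 was not fitted under the filter of 5 TPM.

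With the replicate number as a block, 0 members passed the adjusted p between the cytokines, where 0 of all genes tested did. No other count of members moved by over 1.5 times with this block. The labels do not tie the numbers to a shared culture or day, and the deviations of same-numbered libraries were hardly correlated across genes (r = -0.043, -0.023 and 0.027 for the 3 pairs of groups). With 2 libraries a group, 3 residual degrees of freedom and TPM as the only deposited unit, small differences such as those between the cytokines lie at the limit of what these data can resolve.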
